A study of Mus musculus with 6 samples.

Results

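Fibronectin and 9 other matrix glycoproteins were followed in NMuMG cells, an epithelial line from the normal mouse mammary gland, during the response to TGFβ1. The 10 genes (Fn1, Tnc, Thbs1, Thbs2, Sparc, Spp1, Postn, Tgfbi, Fbn1 and Eln) were taken by symbol from a table of 21240 counted genes, by a rule that uses no measured value, although results of these data were known when the genes were listed. Cells were kept without serum and insulin for 6 h and then given TGFβ1 at 5 ng/ml for 2 h (TGFb2h) or 12 h (TGFb12h), or vehicle for 2 h (veh). The vehicle was the buffer with BSA in which TGFβ1 was dissolved. Stranded total RNA was sequenced from 2 libraries of each of these 3 groups, labelled as biological replicates of 1 cell line, 6 libraries in all. Vehicle libraries were taken at 2 h only, so that the change at 12 h cannot be told apart from that of a longer time without serum.

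Matrix glycoproteins are secreted proteins that fill the space around cells, bind integrins and other receptors, and hold growth factors. Fibronectin is assembled into fibrils by cells through integrins, and its gene is widely used as a mark of epithelial to mesenchymal transition, in which TGFβ makes epithelial cells lose their junctions and become motile. Tenascin C (Tnc), the thrombospondins (Thbs1, Thbs2), Sparc, osteopontin (Spp1) and periostin (Postn) are matricellular proteins, which modulate the contact between cells and matrix rather than build it. Thrombospondin 1 can activate latent TGFβ. Fibrillin 1 (Fbn1) forms microfibrils that anchor latent TGFβ, elastin (Eln) is laid down on them as elastic fibres, and the product of Tgfbi is a TGFβ-induced protein that binds collagen and integrins.

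Library depth was 14705886 to 23786993 counts, of which the 10 genes held 39351 to 186836, and 1 read was worth 0.0436 to 0.0637 CPM (reads scaled to a common library size with TMM factors of 0.961 to 1.07). The 11080 genes that reached 2 CPM in 2 or more libraries were tested together by the quasi-likelihood test of edgeR, and Benjamini-Hochberg adjustment was made over all of them (edgeR adjusted p, called under 0.05). Fn1, Tnc, Thbs1, Sparc and Spp1 passed this filter, and Thbs2, Postn, Tgfbi, Fbn1 and Eln did not. Smad7, Skil, Smurf1, Snai1 and Ltbp2, well-known responses to TGFβ, were called higher at 2 h and at 12 h, with Smad7, an inhibitor of TGFβ signalling, going from 32.4 ± 9.18 CPM in vehicle to 136 ± 46.3 at 2 h and 203 ± 10.7 at 12 h (SD, n = 2). Snai1 passed the filter only through the TGFβ1 libraries and Ltbp2 only through those of 12 h, so that both could enter the test only by differing. Epithelial markers summed to 4964 to 5784 CPM in vehicle, 6444 to 6479 at 2 h and 10327 to 10375 at 12 h, with Cldn3, Epcam and Esrp1 below the filter. The members of that list moved apart at 12 h: Krt8 (1074 to 3333 CPM against vehicle) and Krt18 (2151 to 6191 CPM) were called higher, Krt19 (1757 to 455 CPM) was called lower, and Cdh1 (392 to 372 CPM) was not called by edgeR. Fibroblast markers, of which 2 of 8 passed the filter, summed to 3.51 to 4.65 CPM in vehicle, 8.98 to 9.42 at 2 h and 13.5 to 15.2 at 12 h, mostly through Col1a1, and Thy1 was at 0 in every library. Macrophage markers summed to 5.32 to 7.77 CPM over all libraries, with 1 of 6 markers past the filter. Endothelial markers, with 0 of 4 past it, summed to 0.177 to 0.255 CPM in vehicle, 0.353 to 0.354 at 2 h and 1.74 to 1.95 at 12 h, where Cdh5 held most of the sum. Smooth muscle markers, with 0 of 4 past it, summed to 0.471 to 1.21, 0.861 to 1.51 and 1.74 to 2.05 CPM in the same order. The part of such cells in the levels of the 10 genes was not tested. In bulk RNA a change in the share of cells that express a gene and a change in the RNA per cell cannot be told apart.

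On the NCBIM37 build (mm9), Fn1 (Entrez 14268) lies at chr1:71632094-71699774 on the minus strand, Tnc (21923) at chr4:63620819-63681760 on the minus strand and Thbs1 (21825) at chr2:117937612-117952869 on the plus strand. Sparc (20692) lies at chr11:55208002-55233582 on the minus strand and Spp1 (20750) at chr5:104864137-104870069 on the plus strand. These spans cover whole genes, and reads were counted over their exons, whose joined length was 8.34 kb in Fn1, 7.51 kb in Tnc, 6.07 kb in Thbs1, 3.37 kb in Sparc and 1.65 kb in Spp1. The remaining genes lie at chr17:14802507-14831269 (Thbs2, Entrez 21826, minus strand), chr3:54165031-54194961 (Postn, 50706, plus strand), chr13:56710920-56740923 (Tgfbi, 21810, plus strand), chr2:125126330-125333729 (Fbn1, 14118, minus strand) and chr5:135179651-135223111 (Eln, 13717, minus strand).

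Promoter sequence was matched by symbol in the RefSeq table (build GRCm38.p6) for 7 of the 10 genes, namely Tnc, Thbs2, Sparc, Spp1, Postn, Tgfbi and Fbn1. The 250 bases upstream of the start are shown for Tnc, Sparc and Spp1, the 3 genes that had both an entry and enough reads for a test. Each is written 5′ to 3′ on the strand of its gene, with every SMAD box (the letters GTCT on either strand, the core that SMAD proteins bind) in capitals. For Tnc and Spp1, which have more than 1 start in the table, the upstream start is used. The windows are chr4:64047016-64047265 on the minus strand for Tnc, chr11:55420081-55420330 on the minus strand for Sparc and chr5:104434861-104435110 on the plus strand for Spp1.
Tnc: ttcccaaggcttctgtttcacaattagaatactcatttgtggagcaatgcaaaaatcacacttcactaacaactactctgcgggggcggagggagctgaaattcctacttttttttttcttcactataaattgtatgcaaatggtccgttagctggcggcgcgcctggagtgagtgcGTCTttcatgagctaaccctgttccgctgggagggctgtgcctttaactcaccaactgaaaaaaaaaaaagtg
Sparc: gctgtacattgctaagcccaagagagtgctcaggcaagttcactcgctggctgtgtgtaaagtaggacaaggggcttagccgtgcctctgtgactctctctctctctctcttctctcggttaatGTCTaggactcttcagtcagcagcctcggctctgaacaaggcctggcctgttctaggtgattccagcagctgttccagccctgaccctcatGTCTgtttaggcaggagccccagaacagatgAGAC
Spp1: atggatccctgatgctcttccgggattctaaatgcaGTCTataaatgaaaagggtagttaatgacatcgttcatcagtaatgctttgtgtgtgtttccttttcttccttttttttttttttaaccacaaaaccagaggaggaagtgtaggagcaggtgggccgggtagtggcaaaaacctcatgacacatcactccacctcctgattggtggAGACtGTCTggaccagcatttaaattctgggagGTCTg
The SMAD box occurred 1 time in the Tnc window, 3 times in that of Sparc and 4 times in that of Spp1, whereas 82.9% of 32851 mouse promoter windows of the same length held at least 1 and the median window held 2. TATAAA, the letters of the TATA box, was searched on both strands at any position. It was found 1 time in the Tnc window, 126 bases upstream of the start, and 1 time in that of Spp1, at 211 bases. It was not found in that of Sparc, against 12.4% of all windows with a match, and in Spp1 it shares a base with a SMAD box. The AP-1 motif TGANTCA was present in 6.75% of all windows and in none of those of the 7 genes. A match of letters is a description and not a bound site.

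Fn1, which encodes fibronectin, rose at both times. Its level was 99.7 and 79.6 CPM in the vehicle libraries, 170 and 183 CPM at 2 h, and 1469 and 1097 CPM at 12 h. The 3 groups did not overlap. At 2 h Fn1 was 1.97-fold higher than in vehicle (log2FC 0.98, SE 0.178, edgeR adjusted p = 0.0147). At 12 h it was 14.3-fold higher than in vehicle (log2FC 3.84, SE 0.195, edgeR adjusted p = 4.95e-05) and 7.27-fold higher than at 2 h (log2FC 2.86, SE 0.187, edgeR adjusted p = 0.000254). The call at 2 h was lost without vehicle replicate 2 (log2FC 0.82, edgeR adjusted p = 0.0844), and over 14 alternatives its adjusted p ran from 8.34e-06 to 0.0844.

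Thbs1, which encodes the platelet and stromal protein thrombospondin 1, rose at both times. It was at 77.1 and 52.5 CPM in vehicle, 272 and 125 CPM at 2 h, and 2691 and 2502 CPM at 12 h. Every library of a later group lay above every library of an earlier one, although the 2 h libraries stood 1.12 apart on the log2 scale, where the median tested gene differed by 0.220. The change at 2 h was 3.07-fold (log2FC 1.62, SE 0.365, edgeR adjusted p = 0.0303). The change at 12 h was 40.0-fold against vehicle (log2FC 5.32, SE 0.423, edgeR adjusted p = 0.000195) and 13.1-fold against 2 h (log2FC 3.71, SE 0.390, edgeR adjusted p = 0.00103, with a log2FC of 4.37 without TGFb2h replicate 1). At 2 h the log2FC fell to 0.93 without TGFb2h replicate 1 (edgeR adjusted p = 0.0248), and the call was lost without vehicle replicate 1 (edgeR adjusted p = 0.0761), vehicle replicate 2 (0.142), TGFb12h replicate 1 (0.0893) or TGFb12h replicate 2 (0.0898). It was also lost with only the vehicle and 2 h libraries in the fit (edgeR adjusted p = 0.0912), whereas with the replicate number as a block the adjusted p was 0.000529, and the 14 alternatives ran from 0.000529 to 0.142.

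Tnc, which encodes tenascin C, a matrix protein that weakens adhesion to fibronectin, was the lowest of the 5 tested genes in vehicle. Its level was 9.13 and 4.27 CPM in vehicle, 12.2 and 9.13 CPM at 2 h, and 232 and 164 CPM at 12 h. The lower 2 h library and the higher vehicle library were level, and both 12 h libraries stood far above the rest. At 2 h the change did not pass the test (log2FC 0.66, SE 0.361, edgeR adjusted p = 0.278), and the log2FC was 0.22 without vehicle replicate 2 and 1.32 without vehicle replicate 1. With the replicate number as a block it did (log2FC 0.70, edgeR adjusted p = 0.0149), and the 14 alternatives ran from 0.0149 to 0.688. At 12 h Tnc was 29.4-fold higher than in vehicle (log2FC 4.88, SE 0.373, edgeR adjusted p = 0.00017) and 18.6-fold higher than at 2 h (log2FC 4.21, SE 0.355, edgeR adjusted p = 0.000522). Against vehicle the log2FC at 12 h was 5.53 without vehicle replicate 1.

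**Figure D1:**
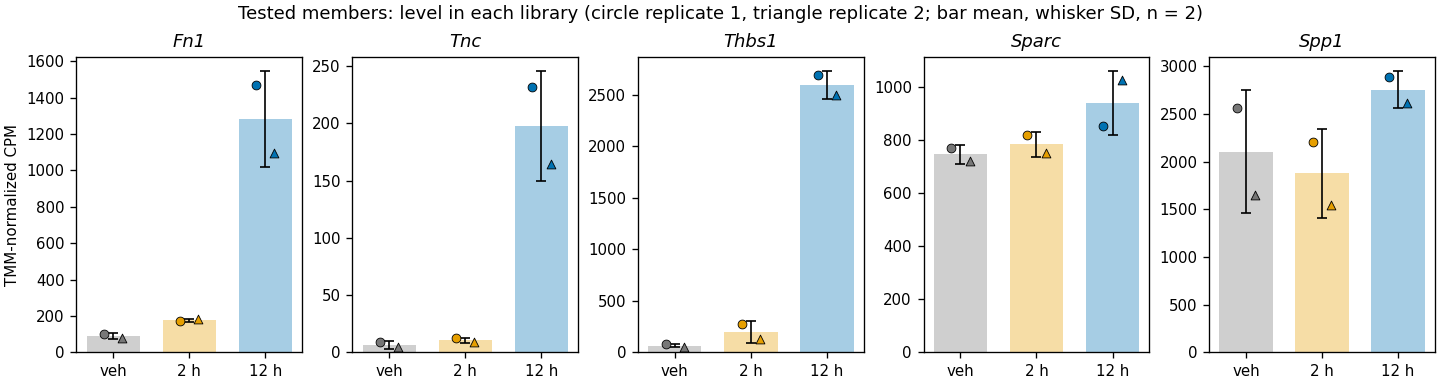
TMM-normalized CPM (vertical axes, linear, each from 0) of the 5 tested genes in vehicle (veh), TGFβ1 2 h and TGFβ1 12 h libraries. Circles are replicate 1, triangles replicate 2, bars the mean and whiskers the SD of 2 libraries. Fn1, Tnc and Thbs1 reach means of 1283, 198 and 2596 CPM at 12 h from 89.7, 6.70 and 64.8 CPM in vehicle, whereas Sparc and Spp1 start at 747 and 2106 CPM.

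Sparc, which encodes a calcium-binding collagen chaperone also known as osteonectin, was already abundant in vehicle. It was at 773 and 720 CPM in vehicle, 819 and 752 CPM at 2 h, and 856 and 1026 CPM at 12 h. The 2 h libraries overlapped those of vehicle, and both 12 h libraries were above all others. Neither the change at 2 h (log2FC 0.07, SE 0.126, edgeR adjusted p = 0.740) nor that at 12 h (log2FC 0.33, SE 0.126, edgeR adjusted p = 0.0722) passed the test. At 12 h it passed with the replicate block (log2FC 0.33, edgeR adjusted p = 0.0376) and with DESeq2 (log2FC 0.32, DESeq2 adjusted p = 0.0459), and the 14 alternatives ran from 0.0376 to 0.401. Between 2 h and 12 h the log2FC was 0.26 (SE 0.126, edgeR adjusted p = 0.156).

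Spp1, which encodes osteopontin, a secreted phosphoprotein and integrin ligand, had the highest CPM of the 10 genes in every library. It was at 2562 and 1651 CPM in vehicle, 2206 and 1547 CPM at 2 h, and 2894 and 2619 CPM at 12 h. In every group replicate 1 was the higher library, and the vehicle and 2 h ranges overlapped. The log2FC was −0.17 at 2 h (SE 0.247, edgeR adjusted p = 0.699) and 0.39 at 12 h (SE 0.247, edgeR adjusted p = 0.248). With the replicate block, the change at 12 h passed the test (log2FC 0.42, edgeR adjusted p = 0.0211), and the 14 alternatives ran from 0.0211 to 0.777. Between 2 h and 12 h the log2FC was 0.55 (SE 0.248, edgeR adjusted p = 0.131), 0.58 with the block (edgeR adjusted p = 0.00542) and 0.83 without TGFb2h replicate 1 (edgeR adjusted p = 0.0419), within a range of 0.00542 to 0.393 over the 14 alternatives.

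Counted over the 5 tested genes, 2 were higher and 0 lower at 2 h, while 9.91% of all tested genes were called higher and 5.25% lower. At 12 h 3 were higher and 0 lower, while 21.8% of all tested genes were called higher and 21.5% lower. Between 2 h and 12 h, 3 were higher and 0 lower, beside 15.2% and 18.9% of all tested genes. With the replicate block more of all tested genes were called as well. At 2 h 3 of the 5 were then higher and 0 lower, beside 16.4% and 12.7% of all tested genes. At 12 h all 5 were higher, beside 27.8% higher and 27.5% lower, and between 2 h and 12 h 4 were higher and 0 lower, beside 23.3% and 25.2%. No tested member was called lower by limma-voom or DESeq2 or at an unadjusted edgeR p under 0.05 (0 in each of the 3 comparisons). The 2 h and 12 h changes share the vehicle libraries, and the median log2FC of all tested genes was −0.01 at 2 h and 0.02 at 12 h.

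**Figure D2:**
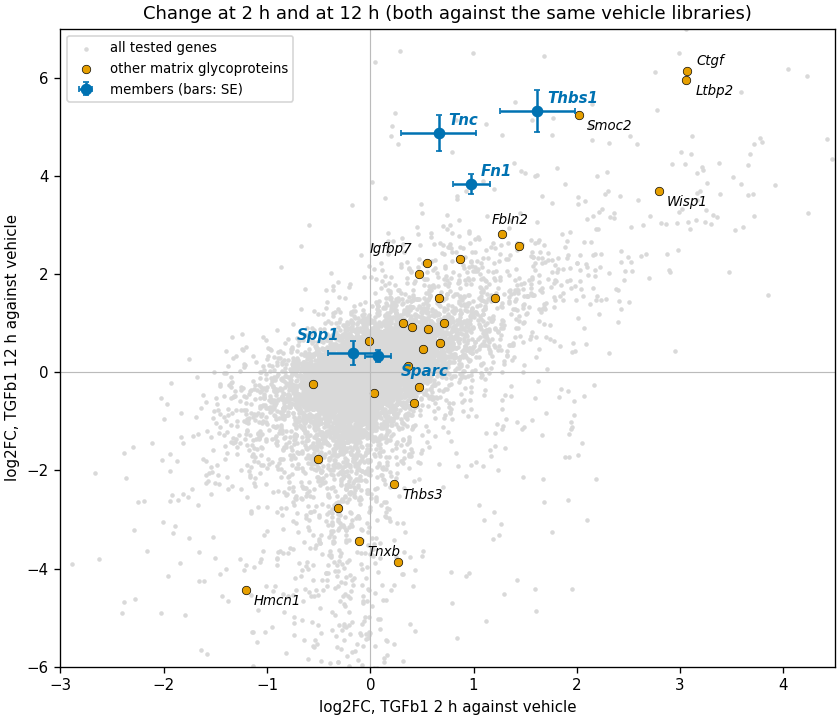
Log2FC at 2 h (horizontal) against log2FC at 12 h (vertical), both relative to the same 2 vehicle libraries. Blue points are the 5 tested members with the SE as bars, orange points the 29 tested genes of the lists of other matrix glycoproteins, and grey points all tested genes, of which 76 of 11080 lie outside the axes. Fn1, Tnc and Thbs1 lie between 3.84 and 5.32 on the 12 h axis, and Sparc and Spp1 lie near 0 on both.

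Summed over the 10 genes, the level was 3521 and 2508 CPM in vehicle, 3482 and 2618 CPM at 2 h, and 8144 and 7410 CPM at 12 h. The mean sum at 12 h was 2.58-fold that in vehicle, and the vehicle and 2 h sums overlapped. The make-up of the sum differed as well. Spp1 held 69.3% ± 4.91 of it in vehicle, 61.2% ± 3.01 at 2 h and 35.4% ± 0.139 at 12 h (SD, n = 2). Thbs1 held 2.14% ± 0.0706 in vehicle, 6.31% ± 2.14 at 2 h and 33.4% ± 0.505 at 12 h. Fn1 held 3.003% ± 0.242, 5.94% ± 1.48 and 16.4% ± 2.28 in the same order. The share of Sparc was 25.3% ± 4.79 in vehicle and 12.2% ± 2.36 at 12 h, and that of Tnc 0.215% ± 0.0629 and 2.53% ± 0.446. These are shares of reads, to which a longer transcript adds more.

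**Figure D3:**
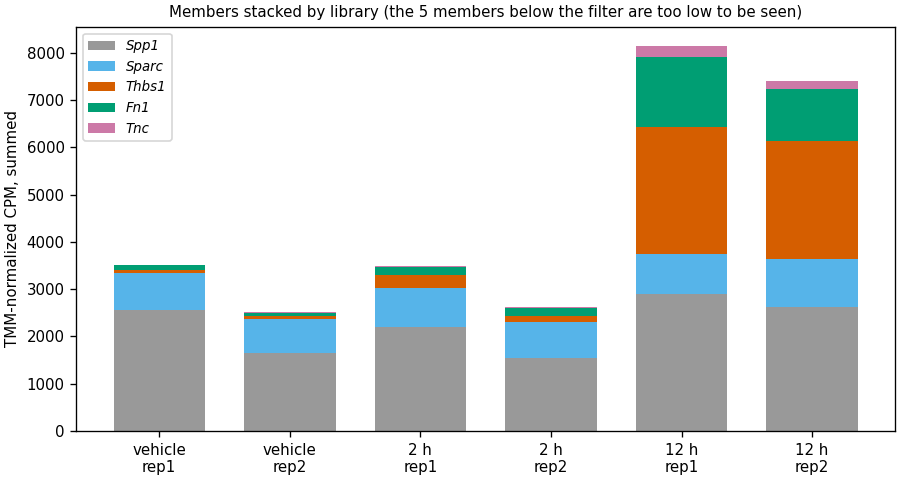
Summed TMM-normalized CPM of the 10 genes in each of the 6 libraries, stacked by gene. The 5 genes below the filter are too low to be drawn. The bars reach 3521 and 2508 in vehicle, 3482 and 2618 at 2 h and 8144 and 7410 at 12 h, and the added height at 12 h is mostly Thbs1 and Fn1.

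Per kb of exon, which allows levels to be compared between genes, Spp1 was at the top in every group, at 1278 ± 391 CPM per kb in vehicle, 1139 ± 283 at 2 h and 1673 ± 118 at 12 h. Sparc followed in vehicle at 222 ± 10.9 CPM per kb. Fn1 and Thbs1, at 10.7 ± 1.70 and 10.7 ± 2.87 CPM per kb in vehicle, did not differ beyond their spread, nor did they at 2 h, at 21.2 ± 1.07 and 32.8 ± 17.1 CPM per kb. At 12 h Thbs1, at 428 ± 22.1 CPM per kb, stood above Sparc at 279 ± 35.8 and Fn1 at 154 ± 31.5, with no overlap between neighbours. Tnc was the lowest of the 5 tested genes in each group, at 0.892 ± 0.457, 1.42 ± 0.289 and 26.4 ± 6.37 CPM per kb. The 5 genes below the filter stayed at or under 0.461 CPM per kb in every library.

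Among these low genes, Fbn1 was the only one with more than 27 reads in a library. Its raw reads were 3 and 1 in vehicle, 6 and 2 at 2 h, and 36 and 28 at 12 h. Both 12 h libraries stood above all others, at 1.57 and 1.44 CPM, still under the 2 CPM of the filter. Over the group totals, Fbn1 at 12 h was 12.3 times its vehicle level, with a 95% exact interval of 4.59 to 46.6 that covers counting error only. Without a filter, edgeR gave Fbn1 a log2FC of 3.56 at 12 h (SE 0.667, edgeR adjusted p = 0.00307). The protein is the main building block of microfibrils.

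Tgfbi, named for its induction by TGFβ, was scarce here. Its reads were 6 and 13 in vehicle, 27 and 21 at 2 h, and 13 and 9 at 12 h. The 2 h libraries were the highest, and those of vehicle and 12 h overlapped. The ratio of 2 h to vehicle was 2.09 (95% exact interval 1.20 to 3.76, counting error only), and that of 12 h to vehicle was 0.892 (0.461 to 1.74). Without a filter the change at 2 h did not pass the test (log2FC 1.04, SE 0.503, edgeR adjusted p = 0.270).

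Thbs2, the close relative of Thbs1, did not share its level. Thbs2 reads were 1 and 0 in vehicle, 3 and 6 at 2 h, and 4 and 2 at 12 h. The ratio to vehicle was 7.43 at 2 h (95% exact interval 1.03 to 326) and 4.62 at 12 h (0.561 to 213), both intervals for counting error only, and without a filter neither change passed the test (edgeR adjusted p = 0.286 and 0.345). Postn, which encodes periostin, had 1 read in a single 12 h library and 0 in the other 5 libraries. Eln, the elastin gene, had 1 read in a single 2 h library and 0 in the rest. A count of 0 allows up to 3 reads, which is 0.131 to 0.191 CPM in these libraries.

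**Figure D4:**
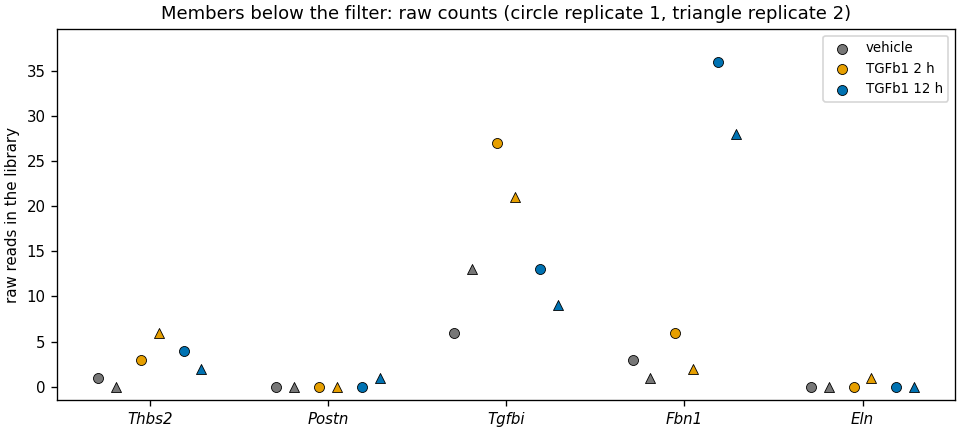
Raw reads per library (vertical axis, linear) of the 5 genes below the filter. Circles are replicate 1 and triangles replicate 2, coloured by group. Fbn1 has 36 and 28 reads at 12 h against 3 and 1 in vehicle, Tgfbi is highest at 2 h with 27 and 21, and Postn and Eln have at most 1 read in any library.

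Genes listed for the same class that are not among the 10 were counted in the same way, including Mfap1a, whose product is a splicing factor. Of these 74 genes, 29 passed the filter, of which 11 were higher and 0 lower at 2 h (edgeR, with 1 lower at an unadjusted p under 0.05 and 0 by limma-voom or DESeq2). With the replicate block 17 were higher and 2 lower, Mfap1a among the lower. Of all tested genes 9.91% were higher and 5.25% lower at 2 h (16.4% and 12.7% with the block). The count at 2 h fell to 7 without vehicle replicate 1, TGFb12h replicate 1 or TGFb12h replicate 2 and to 6 without vehicle replicate 2. At 12 h 16 were higher and 6 lower (18 and 9 with the block), where 21.8% of all tested genes were called higher and 21.5% lower (27.8% and 27.5% with the block), so that the lower calls lay near the share of all genes. Between 2 h and 12 h 13 were higher and 7 lower (15 and 9 with the block), beside 15.2% and 18.9% of all tested genes (23.3% and 25.2% with the block). Their median log2FC was 0.47 at 2 h and 0.88 at 12 h, beside −0.01 and 0.02 over all tested genes. Among the genes called higher at 12 h, Smoc2 and Ltbp2 passed the filter only through the 12 h libraries, so that they could enter these counts only by differing. Hmcn1, among those called lower, passed it only through the vehicle libraries.

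Among relatives of thrombospondin, tenascin and Sparc, 3 of 13 passed the filter, of which 1 was higher and 2 lower at 12 h, beside 21.8% and 21.5% of all tested genes. Thbs3, another thrombospondin, was at 18.9 ± 1.40 CPM in vehicle and 3.89 ± 0.451 CPM at 12 h (log2FC −2.28, SE 0.200, edgeR adjusted p = 0.000273). Tnxb, which encodes tenascin X, was at 85.3 ± 5.01 CPM in vehicle and 7.90 ± 0.449 CPM at 12 h (log2FC −3.43, SE 0.156, edgeR adjusted p = 3.77e-05). These relatives fell where Thbs1 and Tnc rose. Smoc2, a Sparc-related protein, was at 0.277 ± 0.0588 CPM in vehicle, 1.14 ± 0.748 at 2 h and 10.8 ± 5.65 at 12 h (log2FC 5.25 at 12 h, SE 0.681, edgeR adjusted p = 0.00126). Smoc2 passed the filter only through its 12 h libraries, so it could enter the count only by differing. At 2 h none of the 3 was called by edgeR, and with the replicate block Smoc2 was.

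Of 19 genes listed for elastic fibres and microfibrils, 9 passed the filter, of which 4 were higher at 2 h, and at 12 h 6 were higher and 1 lower. With the replicate block 6 were higher and 1 lower at 2 h, the lower gene being Mfap1a, whose product is a splicing factor despite its name. Among all tested genes 9.91% were higher and 5.25% lower at 2 h (16.4% and 12.7% with the block), and 21.8% and 21.5% at 12 h. Fbln2, which encodes fibulin 2, was at 536 ± 62.3 CPM in vehicle, 1299 ± 2.85 at 2 h and 3775 ± 27.6 at 12 h. Ltbp1, which binds latent TGFβ to microfibrils, was at 209 ± 9.80, 290 ± 18.1 and 844 ± 10.00 CPM. Both were called higher at both times by edgeR (adjusted p at 12 h 3.68e-05 for Fbln2 and 5.11e-05 for Ltbp1). Ltbp2 had 2 reads in vehicle, 22 at 2 h and 180 at 12 h over both libraries, a ratio of 69.3 at 12 h with a 95% exact interval of 18.9 to 577, counting error only, and it too passed the filter only through the 12 h libraries. Efemp1, which encodes fibulin 3, was the lower gene (log2FC −2.77 at 12 h, SE 0.419, edgeR adjusted p = 0.00239).

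Of 6 CCN genes, which encode matricellular regulators, 4 passed the filter and 3 were higher at both times, beside 9.91% of all tested genes at 2 h and 21.8% at 12 h. Ctgf rose from 20.9 ± 8.70 CPM in vehicle to 175 ± 44.8 at 2 h and 1470 ± 155 at 12 h (log2FC 6.13, SE 0.358, edgeR adjusted p = 6.96e-05). Wisp1 and Cyr61 had log2FC of 3.70 and 2.57 at 12 h, and Wisp2 was not called (log2FC −0.62, edgeR adjusted p = 0.251), except as lower with the replicate block (log2FC −0.67, edgeR adjusted p = 0.0219). Of 36 basement membrane and other glycoproteins, 13 passed the filter, of which 4 were higher at 2 h (7 higher and 1 lower with the replicate block), and at 12 h 6 were higher and 3 lower (8 and 5 with the block). Shares called higher and lower among all tested genes were 9.91% and 5.25% at 2 h (16.4% and 12.7% with the block) and 21.8% and 21.5% at 12 h (27.8% and 27.5%). The largest changes there were in Pxdn, a matrix peroxidase that crosslinks collagen IV (log2FC 2.32 at 12 h), Igfbp7 (2.23), Papln (70 reads in vehicle, 6 at 12 h) and Hmcn1 (71 reads in vehicle, 4 at 12 h), each called by edgeR, of which Hmcn1 passed the filter only through the vehicle libraries.

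Receptors of the 10 proteins were next compared. Of 14 integrin subunits and other receptors, 9 passed the filter, of which 3 were higher at 2 h (5 with the replicate block) and 7 at 12 h (8 with the block), and 0 were lower at either time by edgeR, limma-voom, DESeq2 or an unadjusted edgeR p under 0.05. The share of all tested genes called higher was 9.91% at 2 h (16.4% with the block) and 21.8% at 12 h (27.8%). The share called lower was 5.25% at 2 h (12.7% with the block) and 21.5% at 12 h (27.5%). Itga5, which with Itgb1 forms the classical fibronectin receptor, was at 13.9 ± 3.03 CPM in vehicle, 25.7 ± 7.95 at 2 h and 80.0 ± 3.24 at 12 h (log2FC 2.53 at 12 h, SE 0.247, edgeR adjusted p = 0.000392). Its log2FC of 0.89 at 2 h was not called by edgeR without the replicate block (edgeR adjusted p = 0.0542) and was called with it (log2FC 0.88, edgeR adjusted p = 0.00259). Itgb1 was at 571 ± 10.96 CPM in vehicle and 2016 ± 70.6 CPM at 12 h (log2FC 1.82, SE 0.124, edgeR adjusted p = 0.000117). Itgb6, whose product pairs with αv to bind fibronectin, tenascin C and latent TGFβ, was higher at 2 h, at 306 ± 60.0 CPM, than in vehicle, at 52.7 ± 10.4 CPM (log2FC 2.54, edgeR adjusted p = 0.00063), and was at 220 ± 2.47 CPM at 12 h. Itgb5 was higher at both times, with log2FC of 1.79 and 2.19. Cd47, a receptor of thrombospondin 1, was not called at 12 h (log2FC 0.05, edgeR adjusted p = 0.740). Sdc4, a proteoglycan that binds fibronectin, was not called at 12 h (log2FC 0.67, edgeR adjusted p = 0.0724), but was called higher with the replicate block (log2FC 0.70, edgeR adjusted p = 0.00224).

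Of 12 genes for processing and crosslinking of these proteins, 9 passed the filter, of which 4 were higher and 0 lower at 2 h, and 4 were higher and 2 lower at 12 h (edgeR), beside 9.91% and 5.25% of all tested genes at 2 h and 21.8% and 21.5% at 12 h, so that the lower count at 12 h was close to that share. At 2 h 0 were lower also by limma-voom, DESeq2 and an unadjusted edgeR p under 0.05. Bmp1, a protease that cleaves matrix precursors, had a log2FC of 0.98 at 2 h and 2.45 at 12 h, and Plod2, a collagen lysyl hydroxylase, of 0.71 and 2.41. Furin, which cleaves fibrillin 1 and the TGFβ precursor, had a log2FC of 1.58 at 2 h and 1.57 at 12 h. Tgm2, a transglutaminase that crosslinks fibronectin, was higher at 2 h (log2FC 0.88, edgeR adjusted p = 0.00437) and not called at 12 h (log2FC 0.14, edgeR adjusted p = 0.368). Fam20c, the kinase that phosphorylates osteopontin, was lower at 12 h (log2FC −1.47, SE 0.123, edgeR adjusted p = 0.000228), and so was B3glct, which glycosylates thrombospondin repeats (log2FC −0.85, SE 0.138, edgeR adjusted p = 0.00323). Pofut2, which also glycosylates these repeats, went the other way and was higher at 12 h (log2FC 0.84, SE 0.114, edgeR adjusted p = 0.00154). Lox, the lysyl oxidase that crosslinks elastin, was below the filter and was not tested, with 0 and 0 reads in vehicle, 9 and 5 at 2 h, and 20 and 23 at 12 h.

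The genes whose profile over the 6 libraries was closest to that of Fn1, by Euclidean distance of log2 CPM centred on the vehicle mean, were Lamb1, Dynap and Elmod1, at distances of 0.576, 0.599 and 0.600. Elmod1 was at 0.0294 CPM in vehicle, 0.303 at 2 h and 4.75 at 12 h, so that its distance depends on the 0.25 CPM added before the logarithm and its own change was steeper than that of Fn1. Lamb1, which encodes the laminin β1 chain, was at 12.3 ± 3.47 CPM in vehicle, 28.3 ± 5.85 at 2 h and 165 ± 6.19 at 12 h. Of the direct neighbours of the tested genes by start site, Atic, 96.1 kb from Fn1, had a log2FC of 0.62 at 12 h (edgeR adjusted p = 0.0048), where Fn1 had 3.84. Atox1, 41.2 kb from Sparc, had 0.58 (edgeR adjusted p = 0.0159) and Pkd2, 24.3 kb from Spp1, had 0.53 (edgeR adjusted p = 0.0104). Neighbours of Tnc and Thbs1 (Tnfsf8, Pappa, Rasgrp1 and Fsip1) were below the filter, at no more than 0.325 CPM in the mean of any group. Limk1, 58.7 kb from Eln, had a log2FC of 1.23 at 12 h (edgeR adjusted p = 0.000849) while Eln had 0 reads there, and Smoc2 is the neighbour of Thbs2, at 415 kb. The other tested neighbours were not called at 12 h by edgeR. They were Supt20 by Postn (log2FC 0.07, edgeR adjusted p = 0.593), Smad5 by Tgfbi (0.23, 0.113), and Dut (−0.58, 0.0862) and Cep152 (−0.15, 0.703) by Fbn1. With the replicate block Dut was called lower (log2FC −0.55, edgeR adjusted p = 0.00879). Of all tested genes 21.8% were called higher and 21.5% lower at 12 h.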

How the data were processed

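Total RNA from 6 NMuMG libraries in 3 groups was sequenced by the authors as single-end stranded reads, aligned to mm9 with subjunc of Subread, restricted to unique reads without duplicates (SAMtools 0.1.19, per the submitters' processing notes) and summed over exons by featureCounts. The deposited values are raw counts per gene, with no normalization. Counts were tested in R 4.3.3 with edgeR 4.0.16, using group as the term, TMM factors and a minimum of 2 CPM in 2 or more libraries. The SE is the absolute log2FC over the square root of F, and p-values are two-sided. Exact permutation of 2 against 2 libraries cannot give a p under 0.333, so single values were not tested. Likeness to Fn1 used log2(CPM + 0.25). Groups came from the labels, and a p-value measures only the spread between labelled replicates, which may share a culture.

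Same-numbered libraries deviated together (correlations of 0.708, 0.263 and 0.392 for the 3 pairs of groups), so that values with the replicate number as a block are given beside the named results and counts whose call they change. This pairing comes from the data and the shared numbers in the labels. Alternatives were limma-voom (limma 3.58.1), DESeq2 1.42.0, its size factors in edgeR, total counts, no filter, at least 10 counts in every library, the block, only 2 groups in the fit and each library left out. Gene positions and exon lengths came from GENCODE on NCBIM37, read in Python 3.11.15, with 20502 of 21240 genes placed by symbol or synonym. Beside the 10 genes, named genes are mainly up to 4 called genes per list with the largest absolute log2FC, any that account for a small count, direct neighbours, and the 3 genes most like Fn1. Some further genes of the lists and markers, such as Smurf1, Cd47 and Lox, are named outside this rule. The genes and lists were chosen with earlier results of these data known. Proteins were not analysed here. A further gene of the list of TGFβ responses is not reported here.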

Additional observations from a re-analysis of the deposited data

Results flagged for a closer look

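The log2FC against vehicle at 12 h was larger than that at 2 h in 3 of the 5 tested genes by a test of the difference itself, the edgeR contrast of the 12 h and 2 h libraries, in which the shared vehicle libraries cancel and longer TGFβ1 treatment cannot be told apart from a longer time without serum. Of all tested genes 15.2% were called higher and 18.9% lower in this contrast. The difference on the log2 scale was 2.86 for Fn1 (SE 0.187, edgeR adjusted p = 0.000254), 4.21 for Tnc (SE 0.355, edgeR adjusted p = 0.000522) and 3.71 for Thbs1 (SE 0.390, edgeR adjusted p = 0.00103), with both 12 h libraries above both 2 h libraries in each. Groups of 2 libraries are too small to single out a library as far from the others. Without a filter on low counts Fbn1 differed too, with a log2FC of 2.86 between 12 h and 2 h (SE 0.590, edgeR adjusted p = 0.00715) on 64 and 8 reads. With the replicate block Spp1 also passed this contrast (log2FC 0.58, edgeR adjusted p = 0.00542), which makes 4 of the 5 tested genes, beside 23.3% of all tested genes called higher and 25.2% lower. The adjusted p of Spp1 ran from 0.00542 to 0.393 over 14 alternatives.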

How the results depend on the processing

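Fn1, Tnc and Thbs1 remained called higher at 12 h, against vehicle and against 2 h, under all 14 alternatives, with adjusted p up to 0.00441 against vehicle and 0.0175 against 2 h. The calls at 2 h depended on more. The number of the 10 genes called at 2 h was 1 with only the 2 groups compared in the fit and 0 to 2 with a library left out, and the number at 12 h was 5 with the replicate block, against 3. Direction reversed for Sparc at 2 h, at −0.039 with total counts, and for 1 or more left-out libraries at 2 h, where the log2FC ran from −0.0083 to 0.13 for Sparc and from −0.46 to 0.18 for Spp1. None of these values passed the test. Total counts in place of TMM factors moved the median of all genes by −0.11 at 2 h and −0.13 at 12 h. Per kb of the longest transcript in place of joined exons, Sparc at 12 h was at 409 and Spp1 at 1829 CPM per kb, and the libraries of Sparc and Thbs1 then overlapped. The replicate block changed no call of a tested member other than Tnc at 2 h, Sparc at 12 h and Spp1 at 12 h against either group. Of 210 alternative log2FC of members, 194 kept direction and call. The count of other matrix glycoproteins called between 2 h and 12 h was 13 without TGFb12h replicate 1, against 20 in the full fit. That list of 74 genes was counted under the alternatives after the data were seen. Depth limits Thbs2, Postn and Eln, which had at most 6 reads in a library.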
